A study of Mus musculus with 3 samples.

Results

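The genes described here build and police the chromosome segregation machinery: centromere (CENP) proteins, spindle checkpoint proteins, the chromosomal passenger complex, Aurora and polo-like kinases, cohesin and condensin subunits, and the kinesin motors. They were taken by a rule on the gene names of the array, which found 80 of 27670 named genes on 152 of 41174 probes. The family was chosen with its HP-to-control ratios already known, and Cenpe was singled out because its ratio was so low, so every ratio of a member below is a description and carries no test. The name rule also took in members with other roles, such as Aurkaip1, which encodes a mitochondrial ribosomal protein, and many kinesins that carry cargo along microtubules.

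The samples were pools of mouse embryos at the four-cell stage, compared on 3 two-colour arrays with 1 pair of pools each. In the high hydrostatic pressure (HP) group, oocytes were held at 20 MPa for 60 min at 37 °C before fertilisation. Oocytes of the control group were handled identically but without pressure. The sample labels give intracytoplasmic sperm injection for both groups, while the series title speaks of in vitro fertilised embryos. Strain and age were not given. The HP pools held 44, 30 and 37 embryos and the control pools 36, 33 and 24, in replicates 1, 2 and 3. HP RNA carried Cy5 and control RNA Cy3 on every array, so dye and treatment cannot be told apart.

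The kinetochore is the protein assembly that forms on centromeric chromatin and ties each chromosome to spindle microtubules. As background, the spindle checkpoint holds back anaphase until every kinetochore is attached, by keeping the anaphase-promoting complex and its activator Cdc20 in check. In the oocyte and early embryo these proteins are first drawn from maternal stores, which are replaced by transcription from the embryo's own genome.

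The probes of Cenpe are shown first because the lowest ratio in the family rests on just 1 of them. CENP-E is a kinesin motor that sits on the kinetochore and carries chromosomes to the spindle equator. Each line gives the first 30 of the 60 bases of a probe, 5′ to 3′, in the order in which the probes lie along the gene's strand, with positions of the array design (mm7); whether a probe lies in an exon or a UTR was not determined, since no genome of that build was used.

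Cenpe, upstream, A_51_P174192, chr3:135012872-135013013 (+): cgatttttaggatgattctggaaagtagag
Cenpe, middle, A_51_P164021, chr3:135063430-135065042 (+): gagcagctaagaaagcaaaataatcaacta
Cenpe, downstream, A_51_P164014, chr3:135067767-135067826 (+): gctggtggcagttctttctgcttgcatctg

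The second set is shown because 2 probes of the same gene gave ratios of opposite sign. Borealin (Cdca8) is a subunit of the chromosomal passenger complex and Mad2l1 encodes the checkpoint protein MAD2.

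Cdca8, upstream, A_52_P392544, chr4:124368455-124371346 (-): tgaagctattcagacacctttgaaatctgt
Cdca8, downstream, A_51_P155142, chr4:124363212-124363271 (-): tctcctattctgttgtcatttgtgccctct
Mad2l1, upstream, A_51_P230873, chr6:66520777-66520836 (+): catacaggatgaaattcgctcagtgattag
Mad2l1, downstream, A_51_P230878, chr6:66521660-66521719 (+): cgctcatttacgaccacaatccataaagtg

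The pair for Kif4, a chromosome-bound kinesin, is shown because the probes overlap. The lines give the last 30 bases of the upstream probe and the first 30 of the downstream one, and capitals mark the 20 bases that both share.

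Kif4, A_51_P254805, chrX:96054101-96054161 (+): agtgtccctgAAAGAGGAGGACCTTGGCTG
Kif4, A_51_P254811, chrX:96054141-96054201 (+): AAAGAGGAGGACCTTGGCTGagtgttggcc

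Values below are log2 ratios of HP over control after loess normalization, and levels are the log2 signals of each pool in its own dye channel. A member was tested when the scanner software called a probe of it well above background on 2 or more of the 3 arrays, in HP or in control. That held for 48 members, represented by their brightest tested probe, and 34 of these were above background in both channels on all arrays. The remaining 32 had no tested probe, among them the checkpoint kinases Bub1b and Ttk, the centriole kinase Plk4, separase (Espl1), the cohesin subunit Smc3 and the cytokinesis motor Kif23. Of the 152 probes, 77 were not well above background in either channel on any array. On the arrays, 17.5% to 23.1% of all probes exceeded background per channel, and the number of arrays limits the precision of every value.

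HP pools 2 and 3 were alike: over the tested members the SD of the difference of their levels was 0.175. It was 0.482 and 0.398 for the other pairs of HP pools and 0.431 to 0.468 between control pools, while HP and control pools differed by 0.592 to 0.804. The members were picked on this contrast, and HP and control pools also differ in dye. The same SDs over all genes were not taken, so nothing is read from the larger ones. Counting replicates 2 and 3 as 1 replicate gave a mean of −2.44 for Cenpe and a median of −0.08 over the tested members. As a check of the tissue, 6 of 10 oocyte and cleavage-embryo markers were above background, and Zar1, Nlrp5 and Ooep were not on any array. None of 10 cumulus and granulosa cell markers passed the same criterion, and 1 of 8 sperm markers did (Prm1). The summed signal of the embryo markers spanned 19210 to 34288 in HP pools and 12774 to 16217 in control pools, 768 to 785 and 782 to 788 for the cumulus markers, and 636 to 654 and 649 to 664 for the sperm markers. The part of the embryo-marker difference in the ratios below was not tested. In bulk samples such as these, fewer cells of a type and less RNA per cell cannot be told apart.

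Cenpe stood alone in the family. Its level was 9.08, 7.80 and 8.13 in HP pools 1, 2 and 3, against 11.01, 10.41 and 11.42 in the control pools. Every HP pool lay below every control pool. The log2 ratio was −1.93, −2.61 and −3.29 on the 3 arrays, a mean of −2.61 ± 0.68 (SD, n = 3) or 6.11-fold lower in HP. This mean ranked 1 from the bottom among 7253 tested genes, and the next lowest gene was at −2.08. The downstream probe shown above carried this value, and it was well above background in both channels on all arrays. The array annotates this probe to a cDNA sequence, and the upstream and middle probes to the RefSeq transcript of Cenpe. The upstream and middle probes were not above background in either channel on any array, with means of 0.06 and −0.06, so they gave no reading of the gene.

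**Figure D1:**
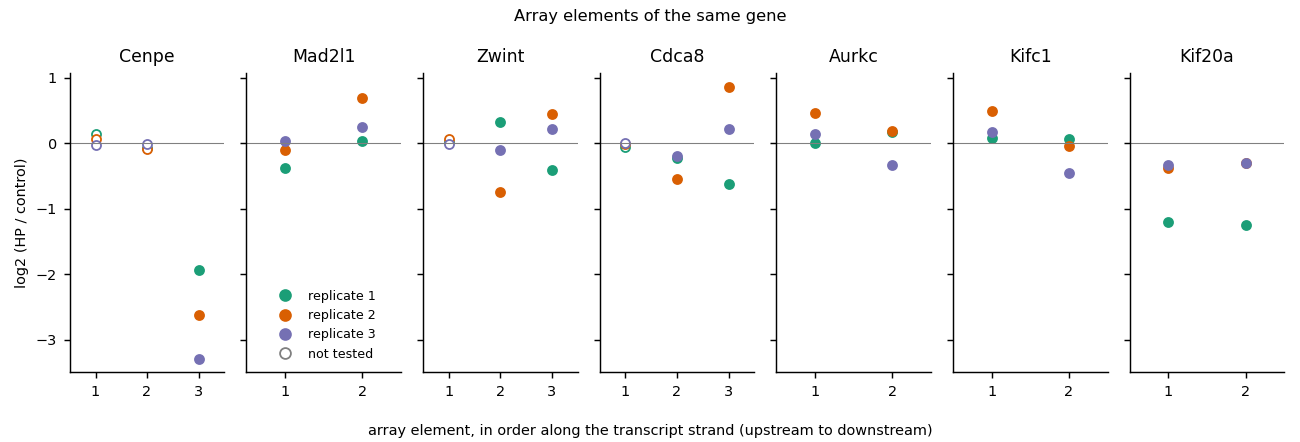
Log2 ratio of HP over control on each array for every element of 7 members, ordered along the transcript strand; filled points passed the criterion for testing and open points did not. Among the elements of Cenpe the downstream one lies between −1.93 and −3.29 and the other elements lie near 0; the elements of Mad2l1, Zwint, Cdca8, Aurkc and Kifc1 scatter around 0, and both elements of Kif20a lie below it.

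No other member was as low. Cenpe was the single member at least 2-fold lower on every array, beside 17 of all tested genes (0.234%), and 0 members were at least 2-fold higher on every array, beside 11 of all tested genes (0.152%). In all, 16 tested members (33.3%) were lower in HP on every array, where 25.3% of all tested genes were, and 10 (20.8%) were higher on every array, where 23% of all tested genes were. The other 22 had mixed signs. With each array's median subtracted in place of loess, 32 were lower on every array (66.7%, beside 58.9% of all genes). Under that scaling 1 was higher on every array (2.08%, beside 3.6% of all genes). The median over the tested members was −0.09, with or without Cenpe, and −0.01 over all genes. On single arrays the members' median was −0.13, −0.20 and 0.00. Since the family was picked on this contrast, nothing is read from these shares.

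The limma fit across all 7253 genes, with Benjamini-Hochberg adjustment, called 0 genes at an adjusted p under 0.05 (0%), and the lowest adjusted p was 0.176. At an unadjusted p under 0.05 it held 1332 genes (18.4%). Its p-values measure the spread between these pools. Pool levels did not overlap between the groups for 10 members that were lower in HP, where 13.5% of all genes behaved so, and for 6 that were higher, where 12.9% did. The lower ones were Cenpe, Smc4, Kif2a, Kif16b, Kif5b, Kif20a, Mad1l1, Cenpc1, Kif2c and Kif22. Among these, Kif2a and Cenpc1 were above background in HP on 1 array, and Mad1l1 was not above it in both channels on all arrays. The higher ones were Kifc2, Pttg1, Mad2l1bp, Cenpo, Kif5c and Cenpj. For Cenpo the gap was slight, with the lowest HP pool at 7.739 and the highest control pool at 7.732. Cenpj was above background in control on 1 array. Of the tested members, 33 (68.8%) had a mean within 0.5 of 0, where 79.9% of all genes did. Just outside that limit lay Plk2 at −0.54 and just inside it Kifc2 at 0.49 and Aurkaip1 at −0.45.

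**Figure D2:**
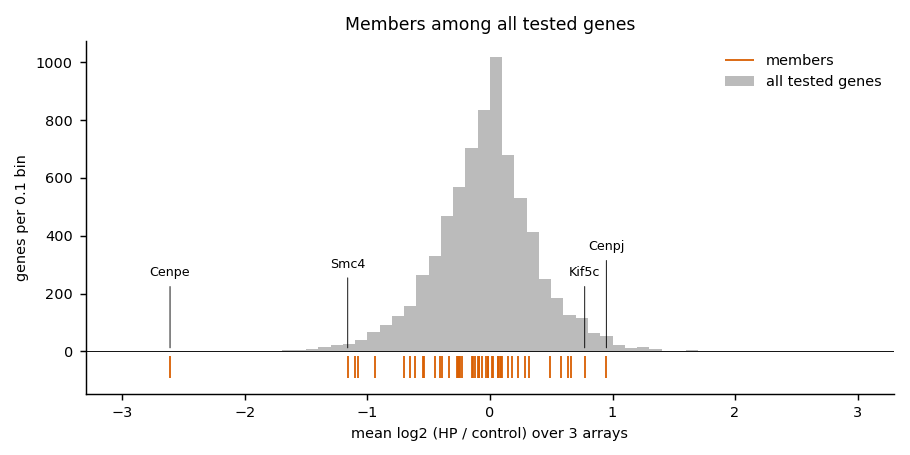
Histogram of the mean log2 ratio of HP over control over 3 arrays for all 7253 tested genes (grey bars, 0.1 wide), with a tick below the axis for each of the 48 tested members. Cenpe, at −2.61, lies apart from the other members, which run from −1.16 (Smc4) to 0.95 (Cenpj).

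**Figure D3:**
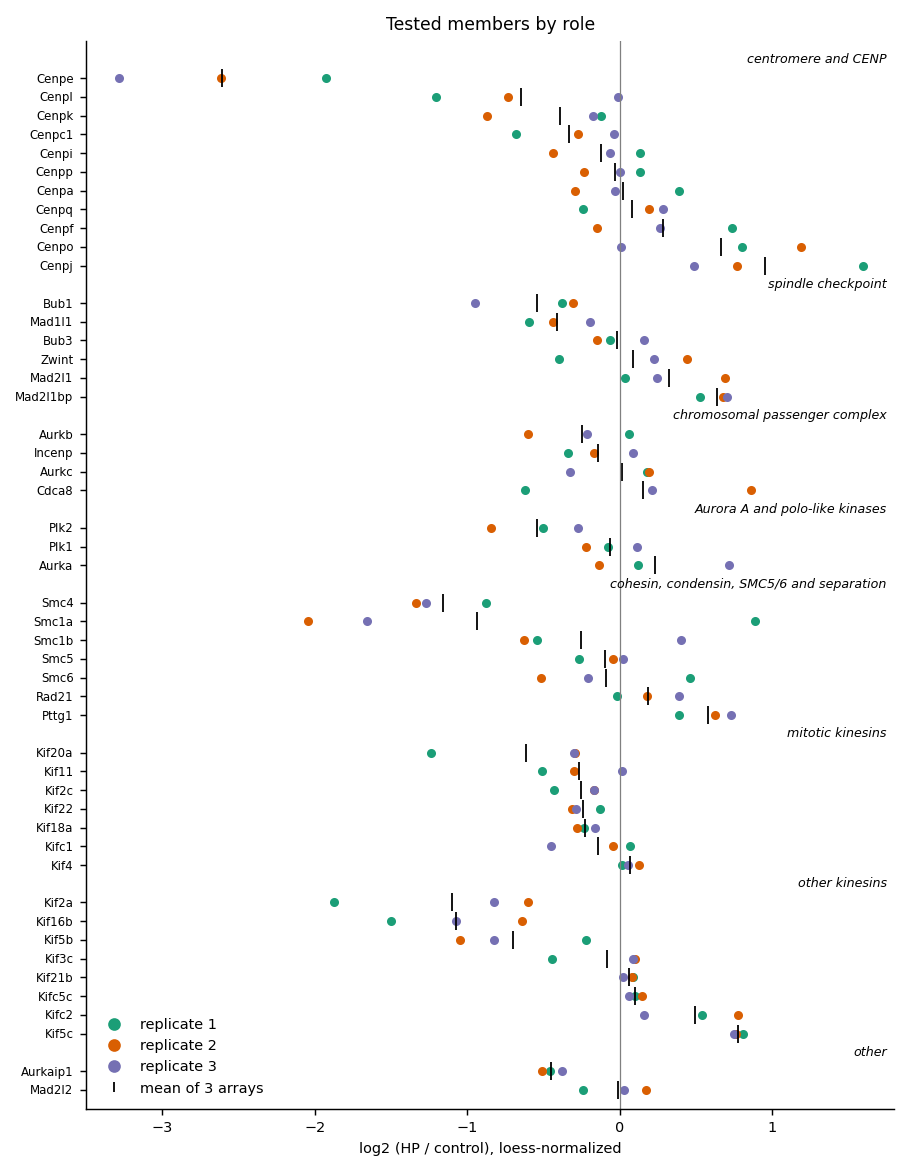
Log2 ratio of HP over control on each array (coloured points) and its mean (black tick) for the 48 tested members, grouped by role. Within each group members lie on both sides of 0, except the 2 members under other, whose means are −0.45 and −0.01; Cenpl, Kif11 and Smc5 were not above background in any HP pool.

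Of the 15 centromere and CENP genes, 11 were tested: 4 were lower on every array, 2 higher and 5 mixed, with a median of −0.03. Cenpa, the histone H3 variant that marks centromeric chromatin, had ratios of 0.39, −0.30 and −0.03. Its mean was 0.02 and its signs were mixed. Cenpf, a large kinetochore and nuclear envelope protein, had ratios of 0.74, −0.15 and 0.26, a mean of 0.28 ± 0.45 (SD, n = 3). Cenpl, a subunit of the constitutive centromere network, was never well above background in an HP pool and was so in 2 of 3 control pools. Its levels were 6.29, 6.37 and 6.21 in HP pools and 7.50, 7.10 and 6.22 in control pools, so replicate 3 did not separate the groups. Control over HP was 1.57-fold by the plain mean ratio. Setting dim values to the lowest signal well above background on their array left it unchanged. It is therefore a ratio with a dim HP channel and not a lower limit.

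At the other end of the CENP group were Cenpo and Cenpj. Cenpo, another subunit of that network, had levels of 7.88, 7.74 and 7.74 in HP pools against 7.09, 6.56 and 7.73 in control pools. The groups touched at replicate 3, whose ratio was 0.01, and the mean was 0.66 ± 0.60 (SD, n = 3). Cenpj encodes a centriole assembly protein and not a kinetochore protein. Its levels were 7.85, 7.20 and 6.86 in HP pools and 6.25, 6.43 and 6.37 in control pools, which did not overlap. The mean ratio was 0.95 ± 0.58 (SD, n = 3), and the control was above background on 1 array.

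In the spindle checkpoint group, 6 of 9 genes were tested: 2 were lower on every array, 2 higher and 2 mixed, with a median of 0.03. Bub1, the kinase that recruits other checkpoint proteins to kinetochores, had levels of 9.15, 8.61 and 8.66 in HP pools and 9.53, 8.92 and 9.61 in control pools. HP was lower within each array, by ratios of −0.38, −0.31 and −0.95, although the groups overlapped because HP pool 1 exceeded control pool 2. Mad1l1, which anchors MAD2 at kinetochores, had levels of 6.72, 6.51 and 6.60 in HP pools and 7.31, 6.95 and 6.79 in control pools. These did not overlap, and the mean ratio was −0.41 ± 0.20 (SD, n = 3). Mad1l1 was not above background in both channels on all arrays. Bub3, the binding partner of BUB1, had ratios of −0.06, −0.15 and 0.16.

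MAD2 itself depended on the probe. The brighter, downstream Mad2l1 probe gave 0.03, 0.69 and 0.25, and the upstream probe gave −0.37, −0.10 and 0.04, for means of 0.32 and −0.15. Mad2l1bp encodes p31comet, which takes MAD2 off its targets and so silences the checkpoint. Its levels were 13.22, 13.44 and 13.23 in HP pools and 12.69, 12.76 and 12.53 in control pools. All HP pools were higher, and the mean ratio was 0.64 ± 0.09 (SD, n = 3), or 1.55-fold, but −0.54 under median centring. That scaling left all tested genes at a median of −0.39.

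**Figure D4:**
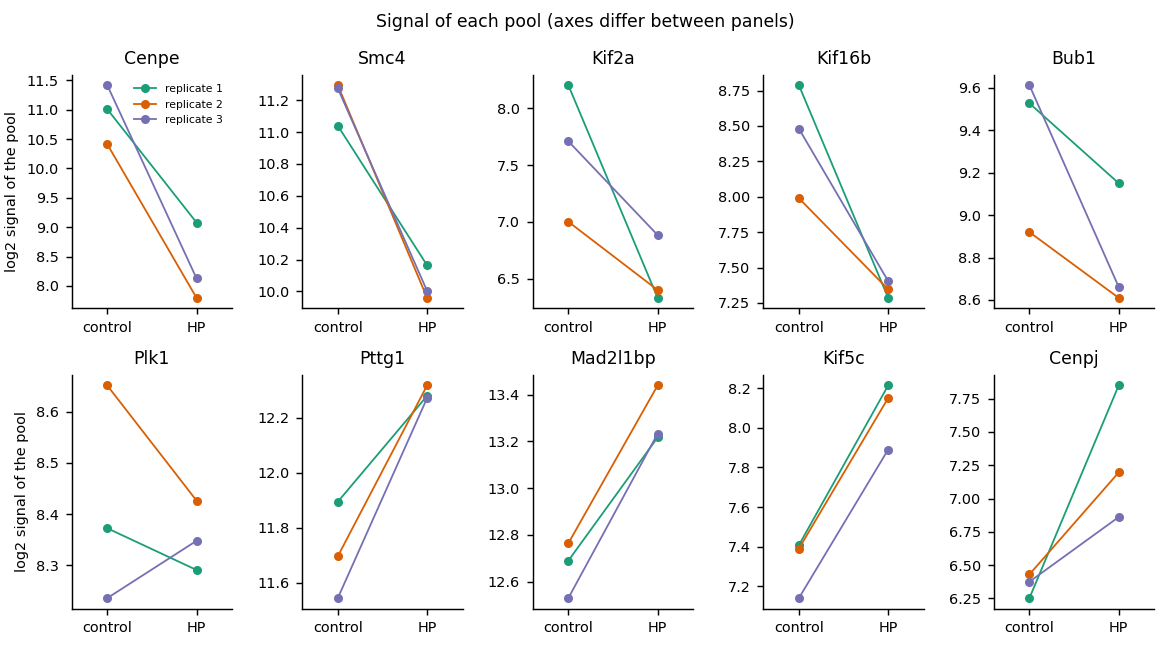
Log2 signal of each control and HP pool for 10 members after loess, with a line joining the pools hybridised to the same array; each panel has its own axis. HP pools lie below all control pools for Cenpe, Smc4, Kif2a and Kif16b, overlap them for Bub1 and Plk1, and lie above them for Pttg1, Mad2l1bp, Kif5c and Cenpj; the ratios of Pttg1 and Mad2l1bp turn negative under median centring.

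All 4 members of the chromosomal passenger complex, which corrects faulty attachments, were tested. None kept its sign on every array, and the median was −0.06. Aurkb, the complex's kinase, had ratios of 0.06, −0.60 and −0.21. Its germ-cell counterpart Aurkc had 0.18, 0.19 and −0.33 on the brighter probe and a mean of 0.20 on the other. Incenp, the scaffold, had −0.34, −0.17 and 0.08. The downstream probe of Cdca8 gave −0.62, 0.86 and 0.21. Its upstream probe gave −0.22, −0.54 and −0.20, with HP never above background and control 1.25-fold higher by the plain mean ratio.

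Among Aurora A and the polo-like kinases, 3 of 5 genes were tested. Aurka, which matures the spindle poles, had ratios of 0.12, −0.14 and 0.71. Plk1, a kinase needed for entry into and exit from mitosis, had levels of 8.29, 8.43 and 8.35 in HP pools and 8.37, 8.65 and 8.24 in control pools. Those pools overlapped, and the mean ratio was −0.06 ± 0.17 (SD, n = 3). Plk2 had ratios of −0.50, −0.85 and −0.27, with a mean of −0.54 ± 0.29 (SD, n = 3).

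Of the 10 genes of cohesin, condensin, SMC5/6 and sister separation, 7 were tested, with a median of −0.10. Smc4, the core ATPase shared by both condensins, which compact mitotic chromosomes, had the second lowest mean of the family. Its levels were 10.16, 9.96 and 10.004 in HP pools and 11.04, 11.29 and 11.27 in control pools. The groups did not overlap, and the mean ratio was −1.16 ± 0.25 (SD, n = 3), or 2.24-fold lower. Its partner subunit Smc2 was not tested. Pttg1, or securin, the inhibitor of separase, was higher in HP after loess. Its levels were 12.28, 12.32 and 12.27 in HP pools against 11.89, 11.70 and 11.54 in control pools. All HP pools were higher, and the mean ratio was 0.58 ± 0.17 (SD, n = 3), but −0.51 under median centring, beside a median of −0.39 over all tested genes.

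The cohesin subunits had no common direction. Smc1a, a core cohesin ATPase, had levels of 8.75, 7.05 and 7.51 in HP pools and 7.87, 9.10 and 9.17 in control pools. Its ratio was 0.89 on replicate 1 but −2.05 and −1.66 on replicates 2 and 3, so the mean of −0.94 had an SD of 1.59 (n = 3). Smc1b, its meiotic counterpart, had −0.54, −0.63 and 0.40. Rad21, the subunit cleaved at anaphase, had −0.02, 0.17 and 0.39.

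Among the mitotic kinesins, 7 of 10 genes were tested: 4 were lower on every array, 1 higher and 2 mixed, with a median of −0.24. Kif20a, a motor of the central spindle, had ratios of −1.24, −0.30 and −0.30, for a mean of −0.61. A second, overlapping probe gave a mean of −0.64, and both rested largely on replicate 1. Kif2c, a microtubule depolymerase at centromeres, had −0.43, −0.17 and −0.17. Kif11, the motor that pushes spindle poles apart, was never above background in HP, with levels of 6.28, 6.43 and 6.30 against 6.79, 6.74 and 6.29 in control. Control was 1.20-fold higher by the plain mean ratio, and replicate 3 showed no gap. Kif4 had 0.01, 0.13 and 0.05.

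The other kinesins had few measurable members, with 8 of 25 tested: 3 lower on every array, 4 higher and 1 mixed. Kif2a, a depolymerase of spindle poles and neurites, was counted here and not with the mitotic kinesins. Its levels were 6.33, 6.40 and 6.88 in HP pools and 8.20, 7.0 and 7.71 in control pools. These did not overlap, although HP was above background on 1 array, and the mean ratio was −1.10 ± 0.68 (SD, n = 3). Kif16b, a motor of early endosomes, had levels of 7.29, 7.35 and 7.40 in HP pools and 8.79, 7.99 and 8.48 in control pools. All HP pools were lower, with a mean of −1.07 ± 0.43 (SD, n = 3). Kinesin-1 heavy chains went both ways. Kif5b, the ubiquitous one, had ratios of −0.22, −1.05 and −0.83. Kif5c, mostly studied in neurons, had levels of 8.21, 8.15 and 7.89 in HP pools and 7.41, 7.39 and 7.14 in control pools. After loess its ratios of 0.81, 0.76 and 0.75 were the most even among the members named here. Under median centring its mean was 0.16, beside a median of −0.39 over all tested genes. Kifc1, counted above with the mitotic kinesins, is a minus-end motor by its name on the array. However, the current RefSeq table gives the accession of both its probes to Kifc5b, a near-identical copy. Kifc1 had a mean of −0.14 on 1 probe and 0.24 on the other, and which copy was measured is uncertain. The members under other roles were Aurkaip1, with a mean of −0.45 ± 0.06 (SD, n = 3), and Mad2l2, a subunit of a DNA repair polymerase, with −0.01.

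Among 50 members with several probes on a single strand, the most downstream probe was tested in 21 (42%), while 15 of the 71 other probes were tested (21.1%). Over the 8549 such genes of the whole array the shares were 32.4% and 18.4%. No test was made of this difference. Of the 6 members with several tested probes, 4 had probes of opposite sign. The same share over all genes was not taken, so nothing is read from this count.

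Some kinetochore genes are on the array under older names and fell outside the name rule. The NDC80 complex binds microtubules end on. Its subunit Nuf2 had ratios of 0.41, −0.19 and −0.02 after loess, while Ndc80, Spc24 and Spc25 were not tested. Kif18b, a motor on growing microtubule ends, had −0.97, −0.56 and −0.35, and Kif20b had −0.27, −0.48 and −0.01. Cenpv had 0.17, 0.12 and 0.35 and Cenpw, a histone-fold subunit of the centromere network, had 0.14, 0.27 and 0.25. Kif18b and Kif20b were thus lower, and Cenpv and Cenpw higher, on every array after loess. Under median centring the means of Cenpv and Cenpw were −0.29 and −0.47, beside a median of −0.39 over all tested genes.

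Other genes of chromosome segregation, such as the anaphase-promoting complex and cohesin regulators, were listed separately. Of 61 on the array, 44 were tested: 12 were lower on every array (27.3%, beside 25.3% of all genes), 10 higher (22.7%, beside 23% of all genes) and 22 mixed, with a median of −0.08. Under median centring 32 were lower (72.7%, beside 58.9% of all genes) and 2 higher (4.55%, beside 3.6%), with a median of −0.68. By limma with Benjamini-Hochberg adjustment, 0 of the 44 passed an adjusted p of 0.05. The 3 lowest by the rule were Nipbl, Anapc13 and Anapc1. Nipbl, the cohesin loader, was not above background in any HP pool. Its ratios were −2.08, −1.39 and −0.26, with mean levels of 6.46 in HP and 7.71 in control. By the plain mean ratio it was 2.37-fold lower, with the HP channel dim. Anapc13 was at −0.75 and Anapc1 at −0.72. The other probes of Anapc1 gave −0.01 and −0.14. The highest was Wapl, which releases cohesin from chromosomes, with 0.52, 2.40 and 1.92 and a mean of 1.61. Sgo1, the protector of centromeric cohesion, followed at 0.43, with −0.004 on replicate 1, and Birc5, or survivin, at 0.42. Under median centring the means of Wapl, Sgo1 and Birc5 were 0.73, −0.20 and −0.67, beside a median of −0.39 over all tested genes.

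Many cell cycle genes carry a CHR (cell cycle genes homology region), a short promoter element bound by the DREAM and MuvB complexes. It was searched as TTTGAA or TTTAAA on both strands in RefSeq promoters (GRCm38.p6) from 250 bases before to 50 after the start. Of 67 members with a promoter in the table, 29 held it (43.3%), and 8261 of 27025 genes did (30.6%). By the signs after loess, it was present in 6 of 12 members lower on every array, 1 of 7 higher on every array and 10 of 19 with mixed signs. Of 29 members not tested, 12 held it. The same split over all genes was not made, so nothing is read from these counts. A match is a description of these letters, not a binding site. Windows of 30 bases are shown for Cenpe and, as contrasts, for Plk2, lower on every array, and Plk1, near 0, with the match in capitals.

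Cenpe, 14 bases after the start, chr3:135212565-135212594 (+): ccttgaggacatTTTAAActtaaaggcggg
Plk2, 24 bases before the start, chr13:110395008-110395037 (+): agccggcgcgtaTTTAAAgcttcgctgctc
Plk1, 29 bases before the start, chr7:122159394-122159423 (+): gcgggtttgtatTTTAAAtccccgcggcca

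The ratios of bright members depended on how the dyes were scaled. Loess, used above, removes a trend of the ratio on intensity. Subtracting each array's median alone instead left the median of all tested genes at −0.39 and that of the members at −0.80, with 32 members lower on every array (66.7%, and 58.9% of all genes) and 1 higher (2.08%, and 3.6% of all genes). Relative to that shift, Cenpe was at −3.09 and the members' median at −0.41, and 8 of 33 named members had another sign than under loess. Aurka, Aurkc, Cdca8, Cenpa, Mad2l1bp, Pttg1 and Rad21 turned from higher to lower, and Kif11, not above background in HP, turned from lower to 0.01. Thus the direction of Mad2l1bp and Pttg1, higher above, holds under loess and in the scanner software's own ratios and not under median centring. Relative to the shift of all tested genes under median centring, Mad2l1bp was at −0.15 and Pttg1 at −0.13. In the scanner ratios, Cenpe was at −3.02, Smc4 at −1.24, Mad2l1bp at 0.44 and Pttg1 at 0.46. The scanner ratios of Kif2a, Cenpl and Cenpj set a channel that was above background on 1 array or none against a measured one, and are not given.

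**Figure D5:**
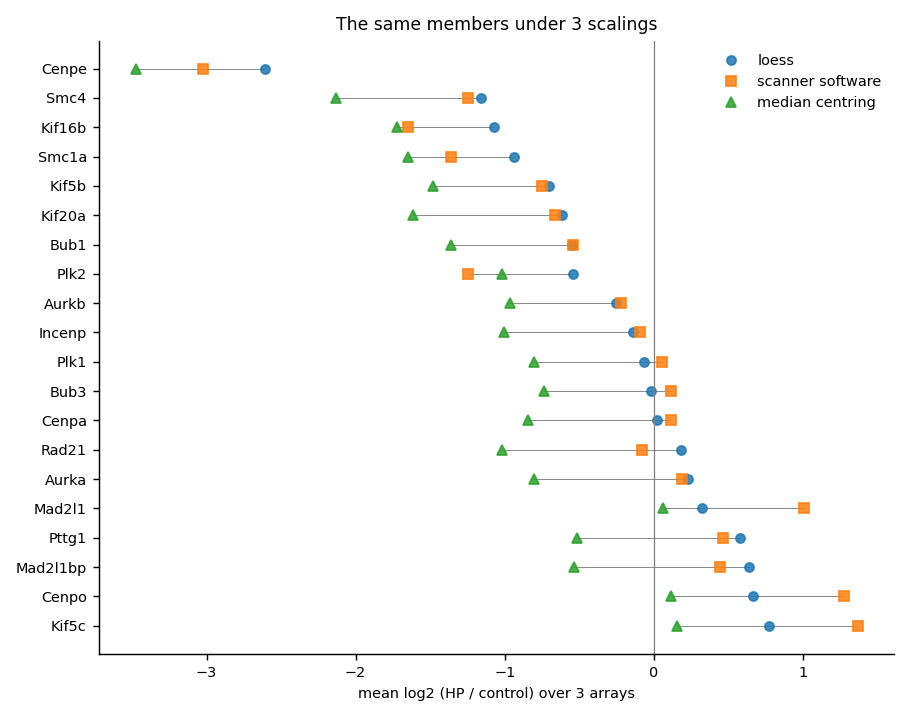
Mean log2 ratio of HP over control over 3 arrays for 20 members above background in both channels on all arrays, under loess (circles), the scanner software's ratio (squares) and median centring (triangles), joined by a line per member. Cenpe is lowest of the 20 under each scaling, and Aurka, Cenpa, Rad21, Mad2l1bp and Pttg1 cross 0 under median centring.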

How the data were processed

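Per the labels, RNA from each pool of embryos was amplified from 240 pg of total RNA and dye-labelled. Per the file headers and the submitters' processing notes, Agilent Feature Extraction 9.5.1.1 read the arrays. The deposited mean and background signals are intensity values, and the deposited log ratio is log10 of Cy5 over Cy3. The series table deposited by the authors repeats these log10 ratios to within 1.66e-09 on the log2 scale. Here the deposited intensity was corrected with normexp (offset 50) and normalized by loess, and the log2 ratio was fitted with limma 3.58.1 in R 4.3.3, after the fit was tested on simulated data. Control spots had weight 0, outlier spots (208, 172 and 325 on replicates 1, 2 and 3) were left out, and spots of a probe were averaged. Pool levels are log2 signals per channel after loess and Aquantile normalization. Symbols were updated through a RefSeq table, and members keep the names on the array. The rule named Cenpe, members with 1 sign on every array and a mean of at least 0.5 either way, each role's extremes and a reference list. Kifc2, Kif22, Cenpc1, Kifc1, Kif18b, Kif20b, Cenpv, Cenpw, Smc5 and Zwint were named after their values were seen. Members and lists were chosen with earlier results of these data known. Other settings covered background, scaling, filters, probes, base composition and replicates.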

Additional observations from a re-analysis of the deposited data

How the results depend on the processing

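Cenpe was lower in HP under each setting that changed its value. The filters, the mean over probes and the separate channels could not change it, since its 1 tested probe passed each filter and Aquantile keeps array ratios. Its mean was −3.48 under median centring and between −2.27 and −2.95 with 1 replicate left out. Median centring also moved the members' median to −0.80. It moved the members lower on every array to 32 (66.7%, beside 58.9% of all genes) and those higher to 1 (2.08%, beside 3.6%). The same scaling brought 1094 genes past an adjusted p of 0.05 in limma, against 0 under each other setting. It subtracts the median of all non-control probes and left all tested genes at a median of −0.39. The fit sets each mean against 0, and the part of that shift in these calls was not tested. With 1 replicate left out, 16 to 22 members (33.3% to 45.8%) were lower on every remaining array, beside 31.1% to 36.9% of all genes. Those higher numbered 11 to 16 (22.9% to 33.3%), beside 29.4% to 36.6% of all genes. The 16 higher came without replicate 1. The cause was not tested. Replicate numbers pair the pools on an array, so each array ratio is itself a paired value. The fit on separate channels with no replicate block gave the same mean for Cenpe, −2.61, and also called 0 genes. With no filter on dim probes, 22 of 80 members were lower (27.5%, beside 17.2% of all genes) and 13 higher (16.2% of both) on every array. Signal over background limited the family to 48 of 80 members.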
